A study of Caenorhabditis elegans with 4 samples.

Results

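The narrow binding regions of ELT-1::GFP are the entries of the combined ChIP-seq list that were shorter than the most common width of that list, called the set width here. They were picked by width alone (end minus start plus 1 base) and numbered 411, or 16.1% of the list (95% Wilson interval 14.8 to 17.6). The other entries were 2127 regions of exactly the set width, which serve as the comparison, and 10 wider ones. The set width is 4 times the shortest width in the list, 96 bp. ChIP-seq (chromatin immunoprecipitation followed by sequencing) was done on hermaphrodite Caenorhabditis elegans of strain OP354 at the third larval stage (L3), grown at 20 °C and fixed with 2% formaldehyde. The worms carry the unc119(ed3) allele and the transgene wgIs354, in which elt-1 is joined to TY1, EGFP and FLAG tags and which holds an unc119 marker. It was brought in by bombardment. No mutation of the worms' own elt-1 is listed, so untagged ELT-1 may be present beside the tagged protein. The series has 2 ChIP samples, each with an input sample of the same strain and stage, and 3 region lists from the ChIP samples were used. The labels do not say whether the samples came from separate cultures.

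ELT-1 belongs to the GATA family of zinc finger transcription factors and is best known for committing embryonic cells to an epidermal fate. GATA factors recognise a short core sequence, GATA, and usually contact only a few bases of DNA. A ChIP-seq region is much longer than such a site, because sheared fragments that carry the site reach out on either side of it. A peak caller may report a set width around a summit or an extent read from the signal, and the sources used here do not say how each width was set. No sequence of the build of the lists was used here, so the regions are described by position, width and rank, and no gene or motif is assigned to them.

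Each region carries a number at the end of its name, starting from 1 in each list, and the combined list was ranked by it. The meaning of the number is not stated. In the replicate lists it rose as the authors' score fell (Spearman's rho -0.9996 across 28238 regions of replicate 1 and -0.9994 across 26327 of replicate 2), so a low number is read as a better rank. The score has a ceiling, however, shared by 2507 regions of replicate 1 and 2733 of replicate 2, and the rho says nothing about the order of the numbers among them. The partners of 408 narrow regions in replicate 1 and of 404 in replicate 2 stood at that ceiling. Rank statements on narrow regions therefore rest on the number alone. The score itself is 1 constant in the combined list. Read depth is unknown for every list, so no region has a counting interval.

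Narrow regions filled the top of the ranked list. Their median number was 220 (quartiles 107.5 and 378), against 1479 (939.5 and 2015.5) for set-width regions. Of the best 100 regions, 96 were narrow and the other 4 were wider than the set width. The first region of the set width was number 144. Before it stood 143 regions, of which 139 were narrow and 4 wider. Width and number come from the same ChIP signal, so these values are a description and carry no test.

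**Figure D1:**
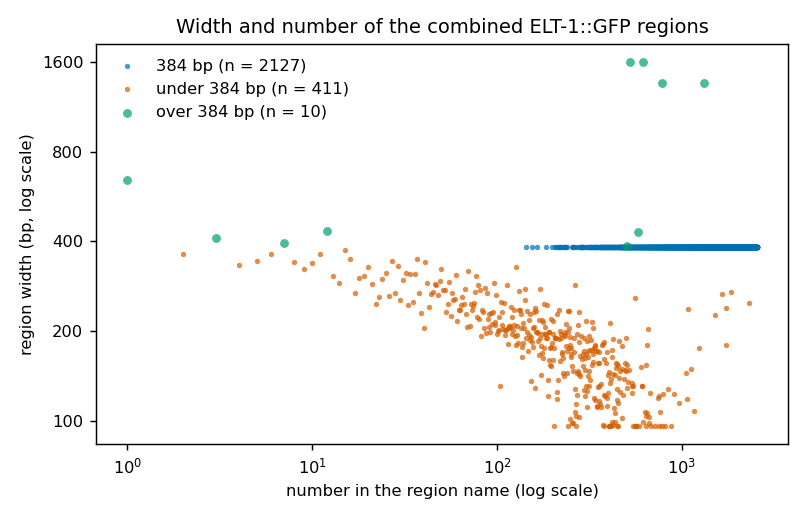
Width of each combined region in bp (log scale) against the number in its name (log scale), with 1 point per region, coloured by width class. Narrow regions slope from 363 bp at number 2 down to 96 bp, while set-width regions start at number 144.

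The change along the list was steep. With the list split into deciles by number (10 parts of like size), narrow regions made up 91.8% of the first decile (234 of 255) and 49.8% of the second (127 of 255). The third decile held 11.8% (30 of 255), the fourth decile 3.14% (8 of 255) and the fifth decile 2.35% (6 of 255). In all, 361 narrow regions (87.8%, Wilson interval 84.3 to 90.6) stood in the best 20% of the list, against 144 of the set-width regions (6.77%, 5.78 to 7.92). Numbers 256 to 510 held 127 regions of each kind, so this stretch allows the 2 classes to be set side by side at closer ranks. Narrow regions still ranked better within it, with a median number of 354 against 408. In the first decile the medians were 121.5 and 217. Comparisons within deciles therefore leave part of the rank difference in place.

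**Figure D2:**
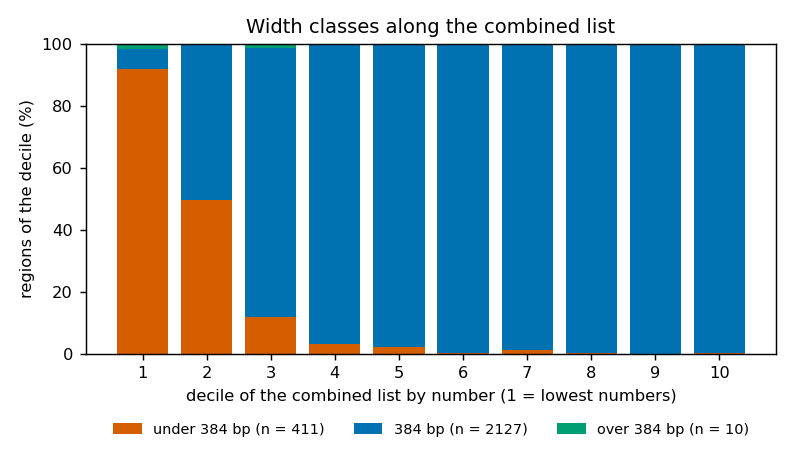
Share of regions (%) in each width class for each decile of the combined list by number; bars start at 0. Narrow regions fill 91.8% of the first decile and 49.8% of the second, and 3.14% of the fourth.

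Within the narrow regions, too, width followed rank. The wider a narrow region was, the lower its number (Spearman's rho -0.78 across the 411 regions, a description of 1 list). The 27 regions of 301 to 374 bp had a median number of 20 and none stood beyond number 126. The median number was 57 for the 41 regions of 251 to 300 bp, 117.5 for the 92 of 201 to 250 bp and 235 for the 126 of 151 to 200 bp. It was 398 for the 103 of 97 to 150 bp. Width thus shrank down the ranks and then gave way to the set width, which is wider than any narrow region.

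The shortest narrow regions shared 1 exact width. The minimum was 96 bp, found in 22 regions (5.35%), with numbers from 204 to 877 and a median of 551. The ratio of 4 between set width and minimum also held in the replicate lists. Replicate 1 had a set width of 376 bp and a minimum of 94 bp (4 regions). Replicate 2 had the set width of the combined list and a minimum of 96 bp (4 regions). Just inside the limit that defines the class lay widths of 374 and 363 bp. Just outside it were the set width and single regions of 386 and 396 bp. No more than 12 narrow regions came within 50 bp of the set width. The median narrow width was 186 bp (quartiles 141 and 231), and the class covered 78184 bp against 816768 bp for the set-width regions.

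The best-ranked members showed their narrowness in all 3 lists. Coordinates follow WormBase build WS220. The best, number 2 on chromosome V at 14506715 to 14507077, was 363 bp wide in the combined list, 331 bp in replicate 1 and 294 bp in replicate 2. It was number 3 in both replicates. Number 4 on X, at 12671588 to 12671921, measured 334 bp, with 286 and 279 bp in replicates 1 and 2. In both cases the combined region was the widest of the 3 and that of replicate 2 the narrowest.

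The same order of widths held in the next members. Number 5, on V at 19429597 to 19429939, measured 343, 303 and 268 bp in the combined list, replicate 1 and replicate 2. Number 6, on V at 5425051 to 5425413, measured 363, 322 and 286 bp. Number 8, the best narrow region of chromosome II at 6176557 to 6176897, measured 341, 297 and 219 bp. Its replicate midpoints were 11 bp apart. Number 9, on V at 4628459 to 4628781, measured 323, 294 and 242 bp and stood alone, with its nearest neighbour 23080 bp away.

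Numbers 10 to 14 held 4 more narrow regions. Number 10, the best of IV at 9618061 to 9618399, measured 339, 274 and 180 bp, and its replicate midpoints lay 31 bp apart. Number 11, on V at 15660982 to 15661343, measured 362, 304 and 243 bp, with replicate midpoints 0.5 bp apart. Number 13, the best of chromosome I at 32622 to 32928, measured 307, 266 and 232 bp. Number 14, on V at 5523283 to 5523571, measured 289, 245 and 223 bp. Chromosome III entered later: its best narrow region was number 17, at 3867420 to 3867688, with widths of 269, 219 and 211 bp. Of the 10 best narrow regions 6 were on V, which held 66 of all 411, a difference that was not tested. In each of the 10 the 3 widths fell in the same order.

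The narrowest members looked different in the replicates. The 5 best-ranked of the 22 regions at the 96 bp minimum were numbers 204, 241, 268, 380 and 401, and every one had a partner of set width in both replicates. None of the 22 had a partner under the set width in either replicate, where the minimum widths were 94 and 96 bp. Number 204 lay on II at 5103363 to 5103458 and was number 232 in replicate 1 and 245 in replicate 2. Number 241, on II at 2974035 to 2974130, was number 163 in replicate 1 and 704 in replicate 2. Number 268, on II at 7808281 to 7808376, was 348 and 205, with replicate midpoints 104 bp apart. Number 380, on III at 10133191 to 10133286, was 262 and 1039, although its replicate midpoints differed by only 10 bp. Number 401, on III at 2528762 to 2528857, was 803 and 265. Neither replicate gave these regions the better number throughout.

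The next question was how narrow regions looked in the single ChIP samples. The combined list was made from these samples, so what follows describes the lists and is no independent evidence. All 411 narrow regions overlapped a region of replicate 1 and of replicate 2 by at least 1 bp (lower Wilson bound 99.1%). Of the set-width regions, 2064 of 2127 (97.0%) did so. When each replicate was limited to its best nuclear regions, as many as the combined list holds, partners in both were found for 401 narrow regions (97.6%, Wilson interval 95.6 to 98.7) and for 1127 of the set-width regions (53.0%, 50.9 to 55.1). The 10 remaining narrow regions had such a partner in 1 replicate, 7 in replicate 1 and 3 in replicate 2. This limit is itself a cut by number, and at closer ranks the classes differed little. In the first decile all 234 narrow and all 17 set-width regions had such partners in both replicates. In numbers 256 to 510 they were found for 126 of 127 narrow and 125 of 127 set-width regions. In numbers 511 to 765 the order was reversed, with 27 of 30 narrow and 208 of 222 set-width regions. Each later decile held at most 8 narrow regions.

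Partner numbers were low in both samples. The median was 241 in replicate 1 (quartiles 121.5 and 449) and 261 in replicate 2 (122 and 473). For set-width regions with a partner the medians were 1496.5 and 1614. The numbers of the 2 partners ran together more closely across narrow regions (Spearman's rho 0.59, n = 411) than across set-width regions (rho 0.17, n = 2064), but the classes span different parts of the ranking and the combined list joins both samples. A few narrow regions rested mainly on 1 sample. The most uneven was number 1068, on III at 13462970 to 13463087, which was number 501 in replicate 1 and 16808 in replicate 2.

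**Figure D3:**
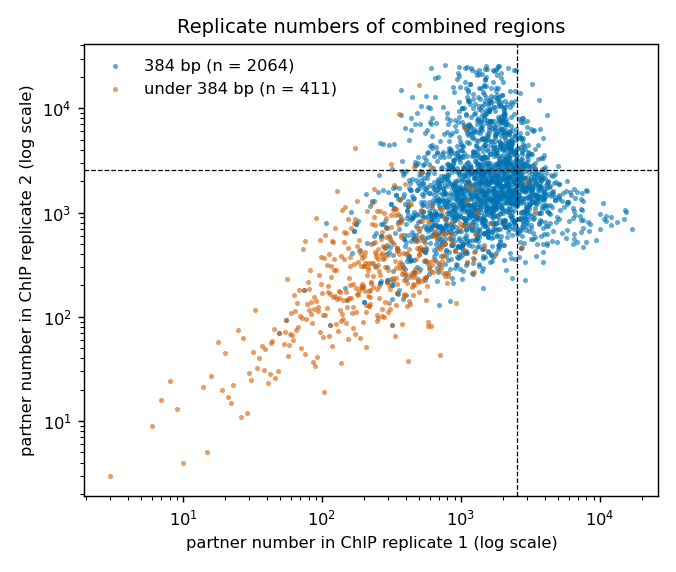
Number of the best overlapping region in replicate 1 (x axis, log scale) against that in replicate 2 (y axis, log scale) for narrow and set-width combined regions; dashed lines mark the number of regions in the combined list. Narrow regions gather toward the lower left, with medians of 241 and 261. Set-width regions have higher medians, 1496.5 and 1614, which also lie below the dashed lines.

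Narrowness itself was shared in part. A width below the replicate's own set width was rare in the replicates, at 194 regions of replicate 1 (0.687%) and 80 of replicate 2 (0.304%). Of the combined narrow regions, 186 (45.3%, Wilson interval 40.5 to 50.1) had a narrow partner in replicate 1 and 67 (16.3%, 13.0 to 20.2) had one in replicate 2. Both partners were narrow for 61 regions, that of replicate 1 alone for 125 and that of replicate 2 alone for 6. For the other 219 (53.3%) both partners had the set width.

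The 3 larger of these groups stood in order of width and rank. The 61 regions that were narrow in all 3 lists had a median width of 288 bp and a median number of 38. The 125 shared with replicate 1 alone had 205 bp and 146, and the 219 that were narrow in the combined list alone had 147 bp and 343. The 6 shared with replicate 2 alone broke the order, with 227.5 bp and 194. By width, a narrow partner in replicate 1 was found for 27 of the 27 regions of 301 to 374 bp, for 70 of 92 of 201 to 250 bp and for 7 of 103 of 97 to 150 bp. In replicate 2 these counts were 24, 19 and 0. Narrow partners were always narrower than the combined region, and no width was under 94 bp in replicate 1 or 96 bp in replicate 2. A partner counted as narrow at any width below the set width of its list, also when wider than the combined region. Why narrow partners were fewer among the shorter combined regions was not tested.

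Where a partner was narrow as well, the combined region was always the wider. This held for 186 of 186 pairs with replicate 1, by a median of 60.5 bp, and for 67 of 67 pairs with replicate 2, by a median of 102 bp. Among the 61 regions narrow in all 3 lists, replicate 1 was wider than replicate 2 in 51 and narrower in 8. Their median widths were 288 bp in the combined list, 207 bp in replicate 1 and 173 bp in replicate 2. Combined and replicate widths correlated across regions (Spearman's rho 0.75 over 186 pairs and 0.71 over 67), again with lists of which 1 was made from the others.

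**Figure D4:**
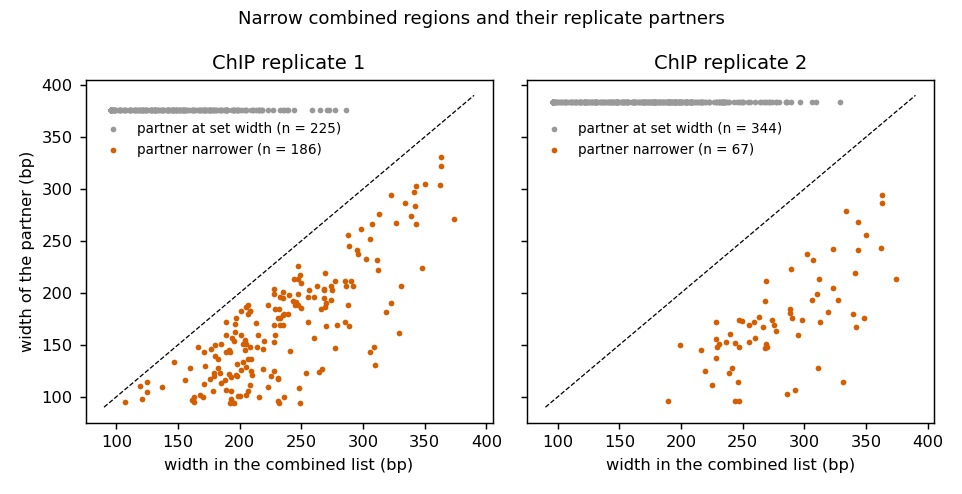
Width of the replicate partner (y axis, bp) against width in the combined list (x axis, bp) for the 411 narrow regions, replicate 1 left and replicate 2 right; the dashed line marks equal widths. All 186 and 67 narrow partners lie below the line, and the grey points are partners at the set width of their list.

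The replicates placed narrow regions at nearly the same spot. Partner midpoints lay a median of 23 bp apart (quartiles 10 and 40.5), against 43 bp (18 and 84) for set-width regions. A distance over 100 bp was found for 19 narrow regions (4.62%) and for 381 of the 2064 set-width regions with partners in both replicates (18.5%). The largest was 236.5 bp for narrow and 390 bp for set-width regions. Partners must overlap the combined region, which by itself limits this distance more for a shorter region. Rank moved with this distance. Among numbers 256 to 510 the medians were 25 bp for narrow regions (quartiles 11 and 39.25) and 32 bp for set-width regions (14 and 57.5). Among numbers 511 to 765 the order was the other way round, with 46 bp for 30 narrow and 32 bp for 222 set-width regions. Within deciles the replicates therefore did not place narrow regions closer throughout.

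Position on the chromosomes was not used to choose the narrow regions, so it could be tested against the set-width regions. There were 3 such tests, Fisher's exact test, two-sided, each adjusted by Benjamini-Hochberg over the 3. Regions are not independent samples and neighbours share signal, so the p-values describe this list and may be too small.

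Narrow regions were found on every nuclear chromosome at similar shares. They made up 14.8% of the regions of chromosome I (55 of 371, Wilson interval 11.6 to 18.8) and 17.5% of those of II (74 of 424, 14.1 to 21.4), the lowest and the highest share. The shares were 17.3% on III, 16.5% on IV, and 15.5% on both V and X. Per Mb, X carried 5.19 narrow regions, followed by II with 4.84 and III with 4.64, and V carried the fewest with 3.16. These densities also depend on how many regions of any width a chromosome held. The list had 594 on X (17.7 Mb), 424 on II (15.3 Mb), 370 on III (13.8 Mb) and 425 on V (20.9 Mb). Median widths ran from 177 bp on I to 194 bp on X.

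X held 92 of 411 narrow regions (22.4%, Wilson interval 18.6 to 26.7) and 502 of 2127 set-width regions (23.6%, 21.8 to 25.5). The odds ratio was 0.934 (95% interval 0.717 to 1.21; Fisher's exact adjusted p = 0.611), so no difference was detected over the whole list. Compared within deciles of the list, narrow regions were on X less often than set-width regions, with an odds ratio of 0.553 (0.358 to 0.853; Mantel-Haenszel test, n = 2538 regions, adjusted p = 0.0319). In numbers 256 to 510, X held 23 of 127 narrow regions (18.1%) and 40 of 127 set-width regions (31.5%). That stretch alone did not pass after adjustment (odds ratio 0.482, 0.255 to 0.897; Fisher's exact adjusted p = 0.059), nor did numbers up to 765 taken by decile (0.619, 0.394 to 0.971; Mantel-Haenszel, n = 757 regions, adjusted p = 0.145). In the first decile X held 62 of 234 narrow regions (26.5%) and 4 of 17 at the set width (23.5%), too few for a comparison. The call on X thus rests on whether rank is taken into account, and on the narrow regions beyond number 765.

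Along the autosomes narrow regions had no detectably different place. The central 60% of the chromosome, between arms of 20% at either end, held 236 of 319 autosomal narrow regions (74.0%, Wilson interval 68.9 to 78.5) and 1226 of 1625 set-width regions (75.4%, 73.3 to 77.5). The odds ratio was 0.925 (0.699 to 1.23; Fisher's exact adjusted p = 0.611). Within deciles it was 0.796 (0.508 to 1.25; Mantel-Haenszel, n = 1944 regions, adjusted p = 0.555). The interval leaves room for a moderate difference in either direction.

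Narrow regions more often had a close neighbour. Another combined region lay with its midpoint within 2 kb for 149 of 411 narrow regions (36.3%, Wilson interval 31.8 to 41.0) and for 525 of 2127 set-width regions (24.7%, 22.9 to 26.6). The odds ratio was 1.73 (1.38 to 2.18; Fisher's exact adjusted p = 7.17e-06). No difference was detected within deciles, where the odds ratio was 0.993 (0.686 to 1.44) by the Mantel-Haenszel test (n = 2538 regions, adjusted p = 0.951). In numbers 256 to 510 a neighbour was found for 32 of 127 narrow regions (25.2%) and 46 of 127 set-width regions (36.2%), the opposite order, which did not pass (Fisher's exact adjusted p = 0.115). Among narrow regions the share was 31.8% at 96 bp (7 of 22), 26.2% at 97 to 150 bp and 30.2% at 151 to 200 bp. It was 41.3% at 201 to 250 bp, 56.1% at 251 to 300 bp and 59.3% at 301 to 374 bp, the widths with the best ranks.

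**Figure D5:**
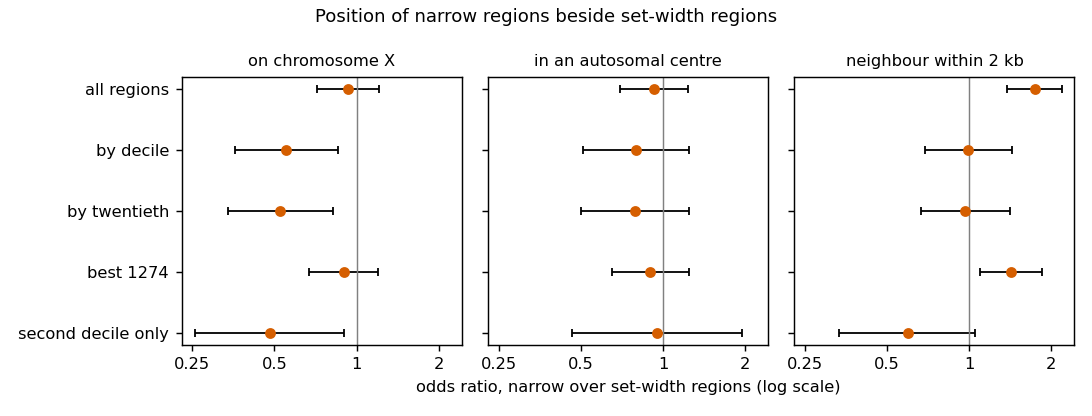
Odds ratios of narrow over set-width regions (x axis, log scale; points) with 95% intervals (bars) for lying on X, in an autosomal centre or within 2 kb of a neighbour, over all regions and with rank taken into account. The neighbour odds ratio of 1.73 over all regions is 0.993 within deciles, and that for X goes from 0.934 to 0.553.

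Narrow regions were mixed with regions of the set width or wider in these neighbourhoods. Of the 149 narrow regions with a neighbour within 2 kb, 93 had none that was narrow and 30 had narrow neighbours alone. The other 26 had both a narrow neighbour and one of the set width or wider. A narrow neighbour was thus found for 56 of the 149 (37.6%, Wilson interval 30.2 to 45.6). Of the 525 set-width regions with a neighbour, 120 had a narrow one (22.9%, 19.5 to 26.6), and narrow regions make up 16.1% of the list. These shares were not tested and take no account of rank. The closest pairs made up of narrow regions alone were singled out after their values were seen. On III, regions at 12427472 to 12427730 and 12427695 to 12427921 overlapped by 36 bp. On II, those at 9171563 to 9171737 and 9171797 to 9172035 were 59 bp apart. On V, at 12299196 to 12299302 and 12299476 to 12299660, the gap was 173 bp. The midpoints of these 3 pairs lay 207, 266 and 319 bp apart, less than the set width, so regions of the set width on the same midpoints would have overlapped. Counting neighbours of any width, the smallest midpoint distance was 156 bp, both for narrow and for set-width regions. Set-width regions thus did overlap others in the list.

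A small tail of narrow regions ranked low. Only 12 had a number above 1000, with widths of 108 to 271 bp and a median of 203 bp. They therefore did not follow the trend of width with rank, which was a rho of -0.83 across the other 399. Of the 12, 7 lay on III, 3 on II and 2 on I. Of all 411 narrow regions, III held 64, II 74 and I 55, and the difference was not tested. Another combined region lay within 2 kb for 6 of the 12, and numbers 1244 and 1733 on II were only 59 bp apart, so they are not 12 separate places. The last in rank, number 2312 on III at 10908552 to 10908800, was 249 bp wide in the combined list, 94 bp in replicate 1 and 173 bp in replicate 2. It was number 3426 in replicate 1 and 1041 in replicate 2, so it was narrow in all 3 lists and yet poorly ranked in the combined one.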

How the data were processed

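Regions were analysed as the authors deposited them, in WormBase WS220 coordinates per the file headers. Their source field reads SPP, a peak caller, and IDR, a measure of rank consistency between replicates. For the aligner, versions, thresholds, use of input and the making of the combined list, the details are not stated here. The combined list held 2548 regions, and narrow means a width below its set width of 384 bp. Each region has a score set by the authors, of unstated meaning. Regions were ranked by the number in their name. A replicate partner is the best-numbered region overlapping by at least 1 bp. Chromosome length was the largest coordinate in any list. Named regions are the 10 best narrow regions, the best on each chromosome, the 5 narrowest with ties broken by number, and the last in rank. The members, lists and tests were chosen with earlier results of these data known. Wilson intervals cover counting error only. Odds ratios were conditional estimates with exact intervals, or Mantel-Haenszel estimates over deciles by number. Alternatives were other width, window and arm limits, the best 1274 regions, 1 replicate's best regions, and repeats counted once. Functions were tested on simulated data. Tools were Python 3.11.15, scipy 1.17.1, statsmodels 0.14.6, pandas 2.3.3, numpy 2.4.6 and matplotlib 3.10.9.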

Additional observations from a re-analysis of the deposited data

Results flagged for a closer look

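Replicate 2 had 7 nuclear regions under its set width that overlapped no combined region, and replicate 1 had 1. The best-numbered of the 7 was number 168 on II at 4912120 to 4912332, 213 bp wide. The next was number 248 on III at 4015769 to 4015991, 223 bp wide. These are signals outside the combined list, and nothing was tested on them.

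On X the centre held 66 of 92 narrow regions (71.7%) and 296 of 502 set-width regions (59.0%), an odds ratio of 1.77 (95% interval 1.06 to 3.00; Fisher's exact p = 0.0268), against 0.925 on the autosomes. The ratio of these odds ratios was 1.91 (Breslow-Day test, n = 2538 regions, p = 0.0227), a comparison made after seeing the data. With rank in a logistic model the ratio was 2.26 (0.866 to 5.91; Wald test, n = 2538 regions, p = 0.0957), and within deciles the odds ratio on X was 1.77 (0.766 to 4.10; Mantel-Haenszel, n = 594 regions, p = 0.253), so neither passed.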

How the results depend on the processing

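The excess of close neighbours kept its direction and its call in the better part of the list, with all wider regions in the comparison, with repeats counted once, at widths below 300 bp, and with windows of 1 and 5 kb. It did not hold with rank taken into account: the odds ratio was 0.993 by decile, 0.965 by twentieth, 0.864 in numbers up to 765 by decile and 0.594 in numbers 256 to 510. The lower share on X passed by decile (0.553) and by twentieth (0.526) and under no other alternative. The odds ratio for autosomal centres was 1.05 with 1 region kept per group of neighbours within 2 kb, against 0.925, and no alternative passed. The causes were not tested. Using only regions found among the best of 1 replicate (leaving out the other), the odds ratios were 0.888 to 0.941 for X, 0.823 to 0.916 for centres and 1.59 to 1.66 for neighbours. Partners in both replicates were found for 39.2% of narrow regions at 50% reciprocal overlap and for 97.6% among the best regions of each. Regions under 192 bp cannot meet the 50% overlap with a replicate 2 partner of set width. In replicate 1, with a set width of 376 bp, that limit is slightly lower. The share of narrow regions in the best 20% of the list stayed within its interval. The twentieths, the limits by number and the single region per group were added after seeing the data. The planned GATA motif test was not run, because no genome sequence of the build was used here. No paired analysis was possible because the input samples have no list among those used. Depth is unknown, so a region at the set width cannot be said to differ in extent of binding from a narrow one.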

Other observations

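The values in this part were singled out after the data were seen. The group of 12 neighbouring regions on IV at 9607040 to 9619135 held 7 narrow regions, 131 to 339 bp wide with numbers from 10 to 169, and 2 wider ones. Narrow regions were 16.1% of the whole list but 91.8% of its first decile, where these 7 numbers lie. The group was not tested.

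Most nuclear replicate regions that were narrow but absent from the combined list lay beside its low-ranked narrow regions, at a few places on II and III. Of the 8 such nuclear regions, 6 had a narrow combined region with a number above 1000 as their nearest combined region. These 6 are not separate places, as the pairs below show, and the count was not tested against the rest of the list. On II, numbers 168 and 1935 of replicate 2 overlapped each other and had midpoints 605 and 410.5 bp from number 1646. On III, number 2928 of replicate 1 and number 6838 of replicate 2 lay next to each other, 807 and 974.5 bp from number 1079. Also on III, numbers 1540 and 6969 of replicate 2 lay 1202.5 bp from number 1834 and 301.5 bp from number 1513. Both of these combined regions lay in the short stretch between them. The other two, numbers 248 and 1718 of replicate 2, had a set-width region as the nearest. Each replicate also had 1 narrow region on mitochondrial DNA, where the combined list has none.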
